A study of Mus musculus with 4 samples.

Results

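Beta-adrenergic receptors of the heart act through the stimulatory G protein, adenylyl cyclase, the second messenger cyclic AMP (cAMP) and protein kinase A (PKA). The genes followed here were Adrb1, Gnas, Gnai2, Gnai3, Adcy6, Adcy7, Adcy9 and Prkaca, taken as every probe set whose only gene symbol in the array's annotation is one of these 8. Of the 12488 probe sets on the array, 12 belonged to 7 of them; Adrb1, the main beta-adrenergic receptor of cardiac muscle, was not analysed here. Total RNA of whole mouse heart was hybridised to 1-colour oligonucleotide arrays, with 2 pools of 5 hearts from heterozygous mice and 2 pools of 5 hearts from wild-type mice. Which gene is heterozygous is left out of this account. All animals were, per the labels, adult males of 8 to 16 weeks on a 129/Black Swiss background. The labels do not say that the pools came from separate animals, so p-values measure only the spread between these 4 samples, which may be technical in part, and a pool of 5 hearts varies less than single hearts do. The comparison asks which of these transcripts differ in level between the genotypes.

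In a heart muscle cell, noradrenaline and adrenaline bind beta-adrenergic receptors, the stimulatory alpha subunit encoded by Gnas activates adenylyl cyclase, and inhibitory alpha subunits, which muscarinic and adenosine receptors engage, hold it back. The cAMP that is made releases the catalytic subunits of PKA from their regulatory subunits. PKA then phosphorylates channels, sarcomere proteins and enzymes, and the heart beats faster and harder. Adenylyl cyclases 5 and 6 are the forms best known from cardiac muscle, Adcy9 is widely expressed, and Adcy7 is best known from blood cells and brain.

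The promoters of Prkaca, Adcy9 and Gnai3 are shown because these genes had the largest called changes among the members. They come from RefSeq (GRCm38.p6), 250 bases before to 50 after an annotated start, printed 5′ to 3′ as that table gives them. Capitals mark TGACG or its reverse complement CGTCA, the core of the cAMP response element bound by CREB-family factors. The printed Prkaca promoter lies at chr8:83972728-83973027 on the plus strand. A second annotated Prkaca window, at chr8:83976633-83976932, held no core and is not printed. The Adcy9 promoter lies at chr16:4420449-4420748 and the Gnai3 promoter at chr3:108146103-108146402, both on the minus strand.
Prkaca: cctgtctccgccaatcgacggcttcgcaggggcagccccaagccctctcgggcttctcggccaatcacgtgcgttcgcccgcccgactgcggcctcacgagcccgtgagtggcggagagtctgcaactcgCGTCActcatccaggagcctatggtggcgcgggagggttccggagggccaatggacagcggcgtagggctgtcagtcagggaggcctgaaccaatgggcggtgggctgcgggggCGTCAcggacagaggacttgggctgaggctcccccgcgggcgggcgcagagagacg
Adcy9: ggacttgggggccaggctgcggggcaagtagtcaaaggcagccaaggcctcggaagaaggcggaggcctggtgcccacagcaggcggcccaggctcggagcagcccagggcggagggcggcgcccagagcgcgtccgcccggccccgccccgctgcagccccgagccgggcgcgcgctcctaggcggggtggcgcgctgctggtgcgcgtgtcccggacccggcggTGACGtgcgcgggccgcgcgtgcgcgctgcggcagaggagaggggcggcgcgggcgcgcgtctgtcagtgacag
Gnai3: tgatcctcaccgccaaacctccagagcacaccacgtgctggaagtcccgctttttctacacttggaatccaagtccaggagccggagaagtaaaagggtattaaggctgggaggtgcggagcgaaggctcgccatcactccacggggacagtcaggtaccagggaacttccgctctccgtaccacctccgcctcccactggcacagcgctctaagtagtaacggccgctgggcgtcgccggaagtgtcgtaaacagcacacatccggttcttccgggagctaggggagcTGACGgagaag
The table held 12 such windows for 6 of the 8 genes, which overlap in places. The core was present in 8 of the 12 windows and in at least 1 window of each of the 6 genes, where 20.8% of 32851 windows of all genes, and 23.0% of 27025 genes, held it on either strand. The full element TGACGTCA, which contains the core, was found in 0 of the 12 windows and in 1.79% of all windows. In the printed windows the core began 120 and 6 bases before the Prkaca start, 24 bases before the Adcy9 start and 39 bases after the Gnai3 start. A match of letters is a description and does not show that a factor binds there.

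Signals are the linear intensities deposited by the authors, and a log2 change is the mean log2 signal of the heterozygous pools minus that of the wild-type pools. Of the 12 member probe sets, 10 were bright enough to be tested with limma over all 7453 tested probe sets, and a probe set was called at a Benjamini-Hochberg adjusted p under 0.05. Of the 10, 6 were called (5 higher, 1 lower in the heterozygous pools) and 4 did not pass. The background is large: 38.3% of all tested probe sets were called, 17.9% as higher and 20.4% as lower. Both heterozygous pools lay outside the range of the wild-type pools in 7 of the 10, where 70.1% of all tested probe sets did the same. In 5 of the 10 both heterozygous pools were above (background 34.6%) and in 2 both were below (background 35.5%). The median log2 change was 0.41 over the 10 probe sets, against 0.00 over the whole tested array. Signals of different probe sets depend on their probes, so the levels of the isoforms cannot be ranked against each other, and only the changes are set side by side.

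**Figure D1:**
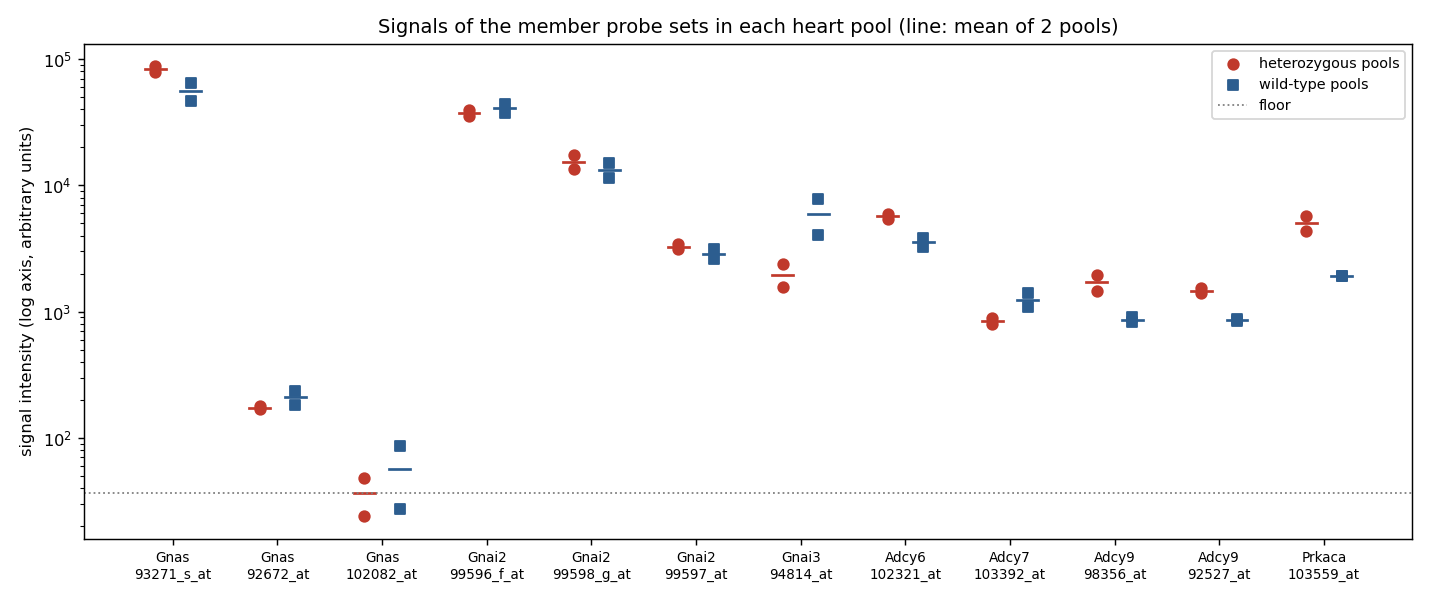
Signal intensity (log axis) of the 12 probe sets of 7 genes in each pool, with circles for the 2 heterozygous pools, squares for the 2 wild-type pools and a line at each mean. The pools are apart for Prkaca, Gnai3, Adcy6, Adcy7, both Adcy9 probe sets and the brightest Gnas probe set, and overlap for all 3 Gnai2 probe sets. The middle Gnas probe set, too dim to test, is also apart, with both heterozygous pools below the wild-type pools.

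Markers of several cell types differed between the genotypes. All 16 tested markers of lymphocyte and thymus were lower in the heterozygous pools, with a median log2 change of -3.21, and their summed signal was 16738 and 16383 in the heterozygous pools, against 143665 and 145162 in the wild-type pools. All 8 tested genes of dividing cells were lower as well (median log2 change -2.69). Markers of cardiomyocytes, the labelled tissue's defining cells, were bright in all pools: 8 of 10 were called higher and 2 did not pass, with summed signals of 861558 and 864593 in the heterozygous pools, against 624375 and 558941 in the wild-type pools. Endothelial markers were higher in 6 of 7 cases and fibroblast markers in 6 of 6 (median log2 changes of 0.96 and 0.82), 1 of 7 macrophage markers was lower, 1 of 5 smooth muscle markers and 2 of 3 erythroid markers were higher, and 0 of 4 adipose markers passed limma (0 of 4 also at an unadjusted p under 0.05). No tested marker had a signal of 0 or stayed at the floor in all pools. The signals of each array are relative to its own total, so all changes below stand beside these shifts, and their part in the members' changes was not tested. In pooled tissue RNA, fewer cells of a type and less RNA per cell cannot be told apart.

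**Figure D2:**
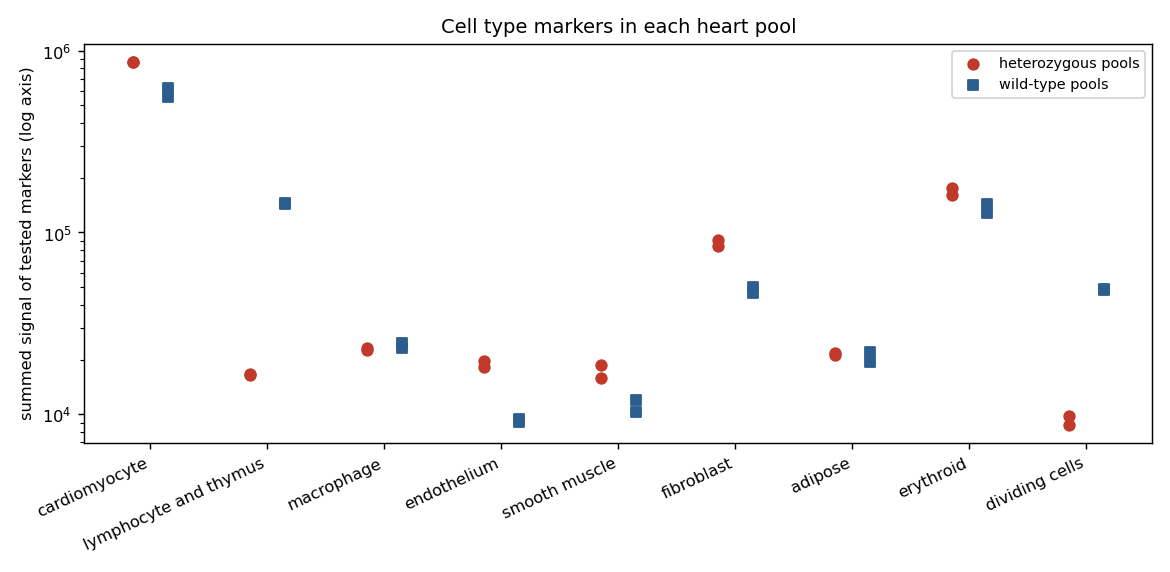
Summed signal (log axis) of the tested markers of 9 cell classes in each pool, with circles for the 2 heterozygous pools and squares for the 2 wild-type pools. The lymphocyte and thymus sum is 16738 and 16383 in heterozygous pools, against 143665 and 145162 in wild-type pools, and the cardiomyocyte sum is higher in both heterozygous pools.

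Prkaca, which encodes the alpha catalytic subunit of PKA, had the largest increase of the members. Its signal was 4386.9 and 5692.3 in the heterozygous pools, against 1923.0 and 1927.8 in the wild-type pools. Both heterozygous pools were far above both wild-type pools, and the wild-type pools were nearly equal. The means were 5040 ± 923 in heterozygous hearts and 1925 ± 3.39 in wild-type hearts (SD, n = 2 each), a 2.60-fold increase (log2 change 1.38, SE 0.17, limma adjusted p = 0.000488). Of all tested probe sets, 8.77% had a larger change in either direction. The increase passed under every alternative run, with log2 changes from 1.19 to 1.56 when a pool was left out, and stayed at 0.68 (adjusted p = 0.0108) when every array was shifted to a common mean of 18 sarcomere genes, called sarcomere centring from here on. That shift lowers every gene alike, and it moves the median of the whole tested array to -0.70. The 3 tested genes whose log2 values followed those of Prkaca most closely over the 4 pools, by the root mean squared difference after centring, were Rxrg (0.036), a retinoid X receptor gene, Ogdh (0.045), of the citrate cycle, and Speg (0.045), a kinase gene of striated muscle. Their own log2 changes were 1.32, 1.41 and 1.32. Over 4 pools of 2 genotypes such likeness mainly means a similar change between the genotypes, and shared regulation was not tested.

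Gnas encodes the stimulatory alpha subunit and, from other start sites of the same imprinted locus, further transcripts. Its brightest probe set had signals of 87455.7 and 78606.4 in the heterozygous pools, against 64361.9 and 46561.8 in the wild-type pools. Both heterozygous pools were above both wild-type pools, although the wild-type pools also differed from each other. The increase was 1.51-fold (log2 change 0.60, SE 0.17, adjusted p = 0.0205). The call was lost when heterozygous pool 1 (0.52), heterozygous pool 2 (0.68) or wild-type pool 2 (0.37) was left out, after quantile normalization (0.36) and cyclic loess (0.21), in a fit with no mean-variance trend (adjusted p = 0.0809) and when dim probe sets were kept (adjusted p = 0.226). Sarcomere centring gave -0.099. The other Gnas probe sets were too dim to test. The brighter of them had 178.4 and 168.3 in the heterozygous pools, against 236.1 and 183.5 in the wild-type pools, and the dimmer had 24.0 and 48.5 in the heterozygous pools, against 86.1 and 27.3 in the wild-type pools, with 1 pool of each genotype under the floor of 36.25. The middle probe set thus had both heterozygous pools below the wild-type pools, opposite to the bright one.

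Of the inhibitory alpha subunits among the members, Gnai3 was called lower and Gnai2 was not called. Gnai1, grouped below with the other G protein subunits, did not pass (log2 change 0.72, limma adjusted p = 0.0619). Its signal was 905.2 and 939.5 in the heterozygous pools, against 447.3 and 702.2 in the wild-type pools, with no overlap. Gnao1, in that same group, was called higher (log2 change 0.68). Gnai3 had signals of 1556.0 and 2375.0 in the heterozygous pools, against 4064.7 and 7768.1 in the wild-type pools. Both heterozygous pools were below both wild-type pools, and the pools of each genotype were themselves far apart. The means were 1966 ± 579 in heterozygous hearts and 5916 ± 2619 in wild-type hearts (SD, n = 2 each), a 2.92-fold decrease (log2 change -1.55, SE 0.30, limma adjusted p = 0.00425). Of all tested probe sets, 6.63% had a larger change in either direction. Leaving out wild-type pool 1 gave a log2 change of -2.01 and leaving out wild-type pool 2 gave -1.08. The call was lost when heterozygous pool 1 was left out (-1.24, adjusted p = 0.0745) and when dim probe sets were kept in the fit (adjusted p = 0.146). It passed under each of the 4 other scalings, from -1.37 to -2.25.

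Gnai2, the inhibitory subunit that is abundant in heart and in leukocytes, had 3 tested probe sets, and none passed limma; 0 of the 3 had an unadjusted p under 0.05. The brightest had signals of 39810.7 and 35368.7 in the heterozygous pools, against 43875.3 and 37563.5 in the wild-type pools, and the genotypes overlapped. Its log2 change was -0.11, with a 95% interval of -0.43 to 0.20. The second had 17364.3 and 13391.9 in the heterozygous pools, against 15157.9 and 11342.4 in the wild-type pools (log2 change 0.22, interval -0.20 to 0.64). The dimmest had 3109.5 and 3446.6 in the heterozygous pools, against 3115.2 and 2602.4 in the wild-type pools (log2 change 0.20, interval -0.17 to 0.58). The sign differed between the probe sets and with the scaling. The brightest was called lower after cyclic loess (-0.45, limma adjusted p = 0.0111). All 3 were called lower under sarcomere centring (-0.81, -0.48 and -0.50, from bright to dim). Of all 7453 tested probe sets, 4205 were called lower under that centring. The names of the brightest Gnai2 and Gnas probe sets carry the letters f and s, which mark probes that can match more than 1 transcript. The probe sets of Cacna1c and Crem, named below, also carry s. Other such design letters are g, on the second Gnai2 probe set and on that of Crebbp, and r, on that of Hcn2.

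The adenylyl cyclases Adcy6 and Adcy9 were higher on the deposited scale. Adcy6 had signals of 5955.6 and 5440.8 in the heterozygous pools, against 3829.4 and 3248.1 in the wild-type pools, with no overlap. The increase was 1.61-fold (log2 change 0.69, SE 0.16, limma adjusted p = 0.00829). The call was lost when either heterozygous pool was left out (0.63 without pool 1, 0.76 without pool 2) and when dim probe sets were kept (adjusted p = 0.0656). Sarcomere centring gave -0.0071. Adcy9 had 2 probe sets that moved together. On the brighter its signal was 1456.8 and 1961.4 in the heterozygous pools, against 829.0 and 899.3 in the wild-type pools (log2 change 0.97, SE 0.21, adjusted p = 0.00636). On the other it was 1535.4 and 1396.8 in the heterozygous pools, against 880.0 and 838.7 in the wild-type pools (log2 change 0.77, SE 0.19, adjusted p = 0.0112). Neither probe set's pools overlapped between the genotypes. The call on the brighter was lost without heterozygous pool 2 (0.75) and without the filter (adjusted p = 0.0821), that on the other without heterozygous pool 1 (0.70), and neither passed under sarcomere centring (0.27 and 0.072).

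Adcy7 had lower values in the heterozygous pools but did not pass. Its signal was 897.7 and 799.8 in the heterozygous pools, against 1093.3 and 1397.4 in the wild-type pools, with no overlap. The log2 change was -0.54 (SE 0.21, limma adjusted p = 0.0688), with a 95% interval of -1.02 to -0.070. It passed as lower under sarcomere centring (-1.24), as did 4205 of all 7453 tested probe sets.

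**Figure D3:**
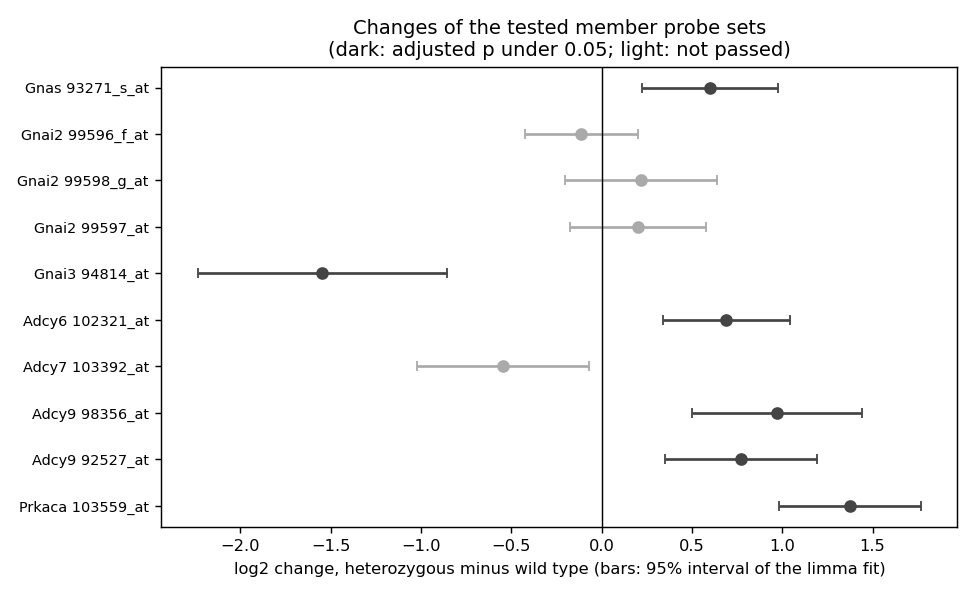
Log2 change (heterozygous minus wild type) of the 10 tested member probe sets with 95% intervals of the limma fit; dark points passed an adjusted p of 0.05 and light points did not. Prkaca (1.38) and Gnai3 (-1.55) lie farthest from 0, and the intervals of the 3 Gnai2 probe sets include 0.

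Within an array, the ratio of 2 probe sets does not depend on how arrays are scaled to each other by a single factor, so differences of log2 ratios compare the changes of isoforms directly. With 2 pools against 2 an exact permutation test cannot give a two-sided p below 0.333, so the 4 ratios, each between the brightest probe sets of 2 genes, are described without a call. The log2 ratio of Gnai2 over Gnai3 was 4.68 and 3.90 in the heterozygous pools, against 3.43 and 2.27 in the wild-type pools, a difference of 1.43 (2.70-fold) that was larger than the spread of either genotype (SD 0.55 and 0.82, n = 2 each). It was 2.01 without wild-type pool 1, against 0.85 when wild-type pool 2 was left out. Gnas over Gnai2 was 1.14 and 1.15 in the heterozygous pools, against 0.55 and 0.31 in the wild-type pools, a difference of 0.71. With the second and the dimmest Gnai2 probe set in its place, a check chosen after seeing the data, the difference was 0.38 and 0.40, and that of Gnai2 over Gnai3 was 1.77 and 1.75. In both ratios the genotypes did not overlap with any of the 3 Gnai2 probe sets. Within each ratio these comparisons share the same Gnai3 or Gnas probe set, and the 3 Gnai2 probe sets measure 1 gene in the same pools. The comparisons are therefore not independent.

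Among the cyclases, the log2 ratio of Adcy7 over Adcy6 was -2.73 and -2.77 in the heterozygous pools, against -1.81 and -1.22 in the wild-type pools, a difference of -1.24 (SD 0.026 in heterozygous and 0.42 in wild-type pools, n = 2 each). Adcy7 thus moved down relative to Adcy6 in both heterozygous pools. The ratio of Adcy9 over Adcy6 was -2.03 and -1.47 in the heterozygous pools, against -2.21 and -1.85 in the wild-type pools, and the genotypes overlapped. The difference of 0.28 was within the spread between the heterozygous pools (SD 0.40) and was -0.0012 without heterozygous pool 2 and 0.079 with the other Adcy9 probe set.

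**Figure D4:**
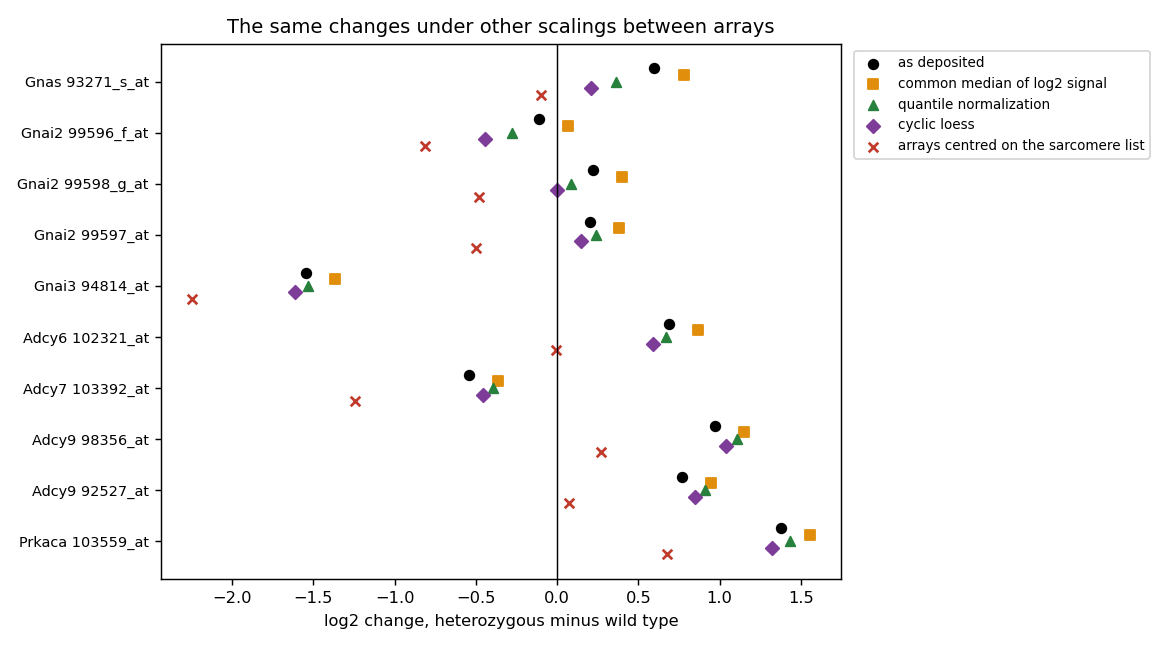
Log2 change (heterozygous minus wild type) of the 10 tested member probe sets as deposited and with arrays scaled in 4 other ways. Prkaca stays above 0 and Gnai3 below 0 under all 5 scalings shown, while Adcy6 and the bright Gnas probe set drop to -0.0071 and -0.099 under sarcomere centring.

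Of the other genes of the pathway, 86 had a probe set and 62 were tested, each on its brightest probe set. Of these 62, 18 were called higher and 11 lower in the heterozygous pools and 33 did not pass. This is 46.8% called, beside 38.3% of all tested probe sets (17.9% higher and 20.4% lower), and the median log2 change was 0.18. Here and in the lists below this comparison is not like for like, since all tested probe sets include the dimmer ones of a gene. Under a stricter filter on dim probe sets, 2387 of 4969 tested probe sets and 25 of 42 tested pathway genes were called. Under sarcomere centring 3 of the 62 genes were called higher and 26 lower, beside 159 higher and 4205 lower of all 7453 tested probe sets. The named calls are up to 3 of smallest p in each direction of each list, 25 in all. Some genes that did not pass are named beside them. Changes are log2 values on the deposited scale unless another setting is given. Of these 25 calls, sarcomere centring ended 8 and turned the sign of 3 more, and 13 were lost when dim probe sets were kept. Those 13 were Pkig, Pkia, Mybpc3, Ryr2, Hcn2, Ptger4, Akap9, Gng10, Gng11, Gnb4, Ppp2ca, Ppp3ca and Ppp1cc.

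The remaining subunits and inhibitors of PKA had 3 of 6 tested members higher (background 17.9%) and none lower (background 20.4%), with 3 not passing. Under sarcomere centring only Pkig of the 3 higher ones still passed as higher. Pkig, a small inhibitor protein of the PKA catalytic subunit, had signals of 14632.3 and 12145.2 in the heterozygous pools, against 5854.4 and 4423.0 in the wild-type pools (log2 change 1.39, SE 0.18, limma adjusted p = 0.000498). The Pkig call was lost when dim probe sets were kept (adjusted p = 0.0531). Prkar1a, the type I alpha regulatory subunit, had 32418.4 and 31722.7 in the heterozygous pools, against 19278.5 and 18951.7 in the wild-type pools (log2 change 0.75, SE 0.12, adjusted p = 0.00183). The pools did not overlap for either gene, so an inhibitor and a regulatory subunit were higher beside the catalytic subunit gene Prkaca. Pkia, another inhibitor, rose as well (log2 change 0.78, adjusted p = 0.0348), a call lost when heterozygous pool 1 (0.98), heterozygous pool 2 (0.57) or wild-type pool 1 (0.41) was left out, after cyclic loess (0.69), in a fit with no mean-variance trend (adjusted p = 0.0902) and when dim probe sets were kept (adjusted p = 0.261). The other catalytic subunit gene, Prkacb, had a log2 change of -0.12 (adjusted p = 0.529).

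Heart proteins that PKA phosphorylates had 5 of 6 tested genes higher and 1 not passing, with a median log2 change of 0.80. Over the whole tested array 17.9% of probe sets were called higher. Mybpc3, of cardiac myosin-binding protein C, had a log2 change of 1.07, Cacna1c, which forms the L-type calcium channel, one of 1.07, and Ryr2, the calcium release channel, one of 0.84. The Ryr2 call was lost without heterozygous pool 2 (0.78). When dim probe sets were kept, the Mybpc3 and Ryr2 calls were lost (limma adjusted p = 0.0612 and 0.0913). Under sarcomere centring the 3 values were 0.38, 0.37 and 0.14, and only that of Mybpc3 passed. Mybpc3 is itself among the 18 sarcomere genes that set this centring, so its value is a deviation from a mean that includes it. Several of these genes are themselves defining genes of cardiomyocytes, and Tnni3 is also in the cardiomyocyte marker list, whose median was 0.61.

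Other effectors of cAMP had 2 of 3 tested genes higher (background 17.9%). They were Popdc3, a membrane protein of the cAMP-binding Popeye family (log2 change 1.18), and Hcn2, a pacemaker channel (0.60). The Hcn2 call was lost after cyclic loess (0.46), without heterozygous pool 2 (0.46) or wild-type pool 1 (0.51), with no mean-variance trend (adjusted p = 0.0561) and when dim probe sets were kept (adjusted p = 0.108). Sarcomere centring gave -0.097 for Hcn2 and 0.48 for Popdc3, neither of which passed. Among A-kinase anchoring proteins, which hold PKA at sites in the cell, Akap1 of mitochondria was higher (0.67; -0.031 under sarcomere centring), Akap9 of the Golgi and centrosome was lower (-0.71) and 3 did not pass. Both calls were lost when either heterozygous pool was left out (0.63 and -0.69 without pool 1, 0.70 and -0.73 without pool 2), and that of Akap9 also without wild-type pool 2 (-0.61).

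Regulators of G protein signalling, which speed the return of alpha subunits to the inactive state, had 0 of 7 tested genes higher (Rgs3 alone had a positive change with an unadjusted p under 0.05) and 2 lower. Over the whole tested array 17.9% of probe sets were called higher and 20.4% lower. Rgs10 had signals of 646.1 and 764.5 in the heterozygous pools, against 2480.9 and 2890.8 in the wild-type pools (log2 change -1.93, SE 0.19, limma adjusted p = 0.00013). Rgs14 had 1006.3 and 1135.2 in the heterozygous pools, against 3376.3 and 4004.2 in the wild-type pools (log2 change -1.78, SE 0.18, adjusted p = 0.000131). Both genes are well known from lymphocytes, and the lymphocyte and thymus markers were lower in the same pools (median log2 change -3.21). A link between these decreases was not tested. Rgs2 (0.26) and Rgs5 (-0.14), both known from the cardiovascular system, did not pass.

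Of the receptors, 3 were tested and only Ptger4, a prostaglandin E receptor that raises cAMP, was called (lower, log2 change -1.36; -0.96 without wild-type pool 2). The alpha1B-adrenergic receptor gene Adra1b had a log2 change of 0.39 (adjusted p = 0.314). Grk6, a kinase that phosphorylates activated receptors, was lower (log2 change -1.12), while Grk5 (0.30) and the arrestin gene Arrb1 (0.35) did not pass. Ptger4 and Grk6 are also known from leukocytes, and whether this bears on their decreases was not tested.

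Other G protein subunits had 5 of 14 tested genes higher (background 17.9%), 3 lower (background 20.4%) and 6 not passing. Gna12 had the largest increase (log2 change 1.41), Gng11 (0.76) and Gnao1 (0.68) were the other named increases, and the decreases were Gnb4 (-0.94), Gna13 (-0.85) and Gng10 (-0.82). Gna12 and Gna13, which encode closely related alpha subunits, thus changed in opposite directions, and both calls were kept under each alternative run. Leaving out heterozygous pool 1 (0.63), heterozygous pool 2 (0.73) or wild-type pool 1 (0.64) ended the Gnao1 call, and sarcomere centring gave -0.018. The Gng11 call was lost without heterozygous pool 1 (0.67), heterozygous pool 2 (0.84) or wild-type pool 2 (0.58), and did not pass under sarcomere centring (0.059). Gng10 lost its call without heterozygous pool 1 (-0.68), and Gnb4 without heterozygous pool 2 (-0.88) or wild-type pool 1 (-0.74).

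Adcy4, a cyclase known from blood vessels, was higher (log2 change 0.88, and 0.18 and not passing under sarcomere centring), beside endothelial markers with a median of 0.96. A link between these increases was not tested. Cap1, a protein first found bound to yeast adenylyl cyclase and known in mammals for turning over actin, was lower (-1.39), and Adcy3 did not pass (-0.48, adjusted p = 0.643). The 4 tested phosphodiesterases, which break down cyclic nucleotides, did not pass limma. Neither did the CREB-family gene Crem or the coactivator gene Crebbp, and 0 of these 6 genes had an unadjusted p under 0.05. Among phosphatase catalytic subunits, which reverse phosphorylation, Ppp3ca of calcineurin was higher (0.98; 0.28 and not passing under sarcomere centring), Ppp2ca (-0.88) and Ppp1cc (-0.50) were lower and 3 did not pass. The Ppp2ca call was lost without heterozygous pool 1 (-0.82) or wild-type pool 2 (-0.76), and the Ppp1cc call without heterozygous pool 1 (-0.48), heterozygous pool 2 (-0.52) or wild-type pool 2 (-0.35), and also with a common median of the arrays (-0.32), with no mean-variance trend (adjusted p = 0.0848) and when dim probe sets were kept (adjusted p = 0.119).

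**Figure D5:**
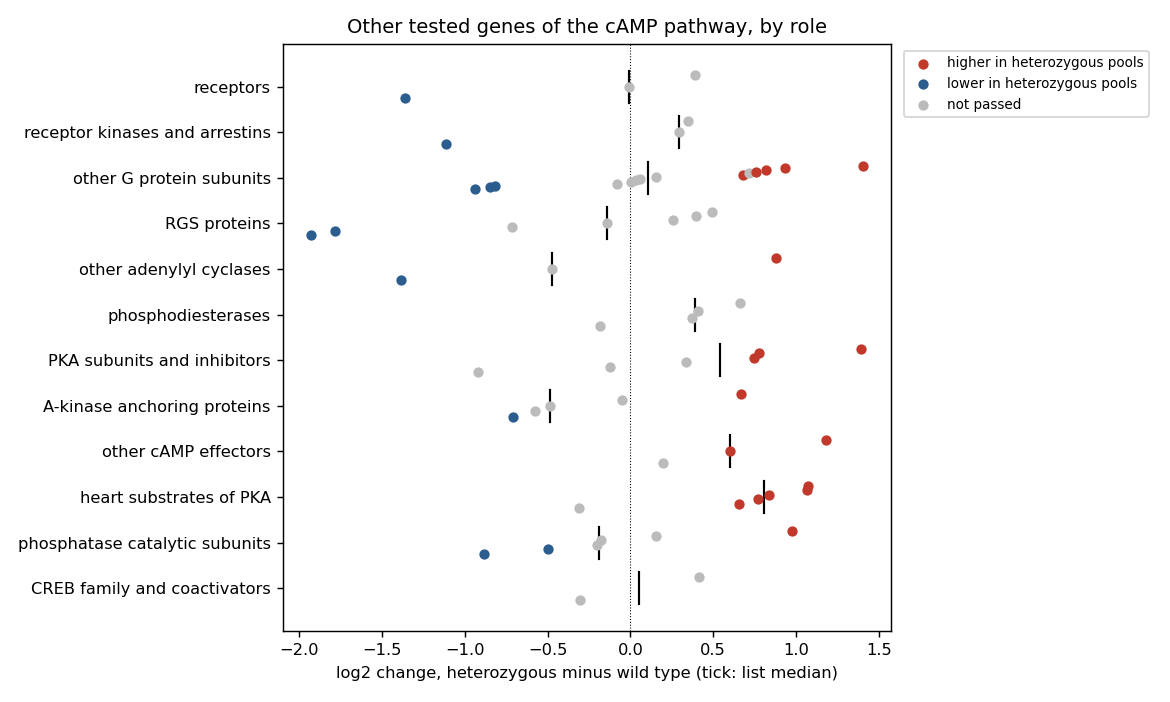
Log2 change (heterozygous minus wild type) of the 62 other tested pathway genes by role, with a tick at each list's median. Points to the right in red were called higher (18), points to the left in blue were called lower (11) and grey points did not pass (33). As deposited, heart substrates of PKA show 5 increases in 6 tested genes and RGS proteins 2 decreases in 7. Of all tested probe sets, which include the dimmer ones of a gene, 17.9% were called higher and 20.4% lower. Under sarcomere centring 3 of the 62 genes were called higher and 26 lower, beside 159 and 4205 of all 7453 tested probe sets.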

How the data were processed

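Each array has 1 linear signal intensity per probe set, as deposited by the authors; how probes were summarised is not given in the sources used for this account. Per the labels, hearts were homogenised in Trizol and the RNA had a further phenol-chloroform extraction. Trimmed means (2% off each end) differed by 1.01 times at most between arrays, so signals were used as deposited. Signals under the 10th percentile (36.25) were set to that value before log2 was taken. Of 12422 probe sets that are not controls, the 40% with the lowest mean were not tested. The remaining 7453 were fitted with limma 3.58.1 in R 4.3.3 (lmFit, eBayes with trend; genotype as the only term), with two-sided p-values adjusted by Benjamini-Hochberg over all of them. SE and 95% intervals are limma's. Precision is limited by the number of arrays. Scan dates are not in the labels, so no batch was examined. The platform annotation gave 10855 probe sets 1 symbol, 396 several and 1237 none; only the first kind was named. Called pathway genes named are up to 3 of smallest p per list and direction. Some further pathway genes, most of which did not pass, were named outside this rule. Likeness was computed for Prkaca alone, since Adrb1 was not analysed here. Members and lists were chosen with earlier results of these data known. Alternatives were other scalings, floors, filters, moderation and thresholds, the pool number as a block, and each pool left out. With a pool left out, the other genotype alone gives the spread, and the lone pool is assumed to vary like it. Plots were drawn with matplotlib 3.10.9.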

Additional observations from a re-analysis of the deposited data

How the results depend on the processing

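Of the 6 member calls, only Prkaca passed under all alternatives run; of the 25 named pathway calls, 6 did (Gna12, Gna13, Rgs10, Rgs14, Grk6 and Cap1), and 14 passed without any 1 pool. Calls over the whole array (2856; 1337 higher, 1519 lower) numbered 4364 (159 and 4205) with arrays centred on the sarcomere genes, 1206 (482 and 724) without the filter on dim probe sets and 1659 (691 and 968) at an adjusted p under 0.01. Leaving out 1 pool gave 1707 to 2289 calls, with 630 to 1125 higher and 1077 to 1164 lower. Higher calls made up 46.8% of calls as deposited, 62.5% with a common median, which moved the array's median log2 change to 0.18, and 3.64% with arrays centred on the sarcomere genes, which moved it to -0.70. Member calls numbered 2 without the filter, where Adcy6, the brighter Adcy9 probe set, Gnai3 and Gnas lost theirs, and 2 to 6 without 1 pool (2 without heterozygous pool 1, 3 without heterozygous pool 2). Other pathway calls (29) numbered 13 without the filter, 19 at an adjusted p under 0.01 and 18 to 26 without 1 pool. Without the filter 86 pathway genes were tested in place of 62. Centring on the sarcomere genes turned the log2 changes of Adcy6 (-0.0071), Gnas (-0.099), the dimmest (-0.50) and second (-0.48) Gnai2 probe sets, Gnao1 (-0.018), Akap1 (-0.031) and Hcn2 (-0.097), since it lowers every gene alike; a common median turned the brightest Gnai2 probe set (0.066) and cyclic loess the second (-0.0035). The difference of the Gnas over Gnai2 log2 ratio (0.71) was 0.38 and 0.40 with the other Gnai2 probe sets. Deviations of same-numbered pools correlated at 0.16 across probe sets, and whether those pools share more than a number was not tested. With the replicate block 3035 probe sets, 6 member probe sets and 29 pathway genes were called. The causes of the other changes were not tested.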
